A study of Mus musculus with 12 samples.

Results

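The mitosis genes are a list of 40 mouse genes whose products run cell division, from the kinases that start mitosis to the proteins that part the daughter cells. They were chosen by name, with earlier results of these data known, and each gene was read from the probe set that stands for that gene alone and had the highest mean over the 12 arrays. Of the 40 genes, 39 had such a probe set, out of 17097 genes measured in this way; Nuf2, a kinetochore gene, was not analysed here.

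The arrays held RNA from sorted cells of untreated mouse small intestine, in 6 populations named for the RNA-binding protein gene Mex3a and the stem cell receptor gene Lgr5. Among Lgr5 High cells these were Mex3a High, Mex3a Low and Mex3a Neg, and among Lgr5 Low cells Mex3a High, Mex3a Low and Mex3a Neg. Each population was taken from 2 biological replicates, MR793 and MR820, with 2000 cells per sample and 22 amplification cycles. The labels and the series text used here name no strain, no age and no reporter behind the gates.

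A dividing cell makes the products of these genes anew in each cycle: their transcripts build up before mitosis and are low in cells that have left the cycle. Cyclin-dependent kinase and its cyclins start mitosis, the spindle checkpoint holds it until every chromosome is attached, and the anaphase-promoting complex, a ubiquitin ligase, then ends it by marking cyclins and securin for destruction. In the small intestine the dividing cells are the stem cells at the crypt base and the transit-amplifying progenitors above them, while mature absorptive and secretory cells have stopped dividing.

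Values are log2 RMA values, a scale on which a difference of 1 is a doubling, and pairs of values are given for MR793 and then MR820. On the sorting genes, Lgr5 measured 9.00 and 10.21 in Mex3a High, 10.21 and 10.04 in Mex3a Low and 10.07 and 9.96 in Mex3a Neg cells of the Lgr5 High gate, and between 6.37 and 8.05 in the 6 samples of the Lgr5 Low gate. Mex3a measured 5.44 to 6.35 over all 12 arrays, so its probe set did not follow the gates: in Lgr5 Low cells it gave 5.71 and 5.57 in Mex3a High and 5.44 and 5.60 in Mex3a Neg cells. One array stood apart, that of Mex3a High Lgr5 High cells in MR793: it correlated at 0.896 to 0.916 with the other 11 over all probe sets. On that array 14 of the 39 mitosis genes lay over 1 log2 unit from the MR820 array of the same population, beside 22.8% of all genes; in the other 5 populations 0 of the 39 did, beside 0.392% to 1.98% of all genes. The limma counts of the mitosis genes are therefore given for the 12 arrays and for the 11 arrays without it. Counts of cell type markers and kinase inhibitors are given for the 12 arrays only. On the array that stood apart, probe sets of the same gene could shift in opposite directions, so a shift there is that of the set used. The median residual SD over all genes was 0.116 in the 11-array fit, against 0.220 with all 12 arrays. Leaving out the MR820 array of the same population instead gave the same 0.116, since either choice removes the gap between that pair from the pooled spread. Because 2 samples per population carry the test, p-values measure the spread between these samples, and because each sample is bulk RNA, fewer dividing cells and less RNA per dividing cell cannot be told apart.

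Within the Lgr5 Low gate the median of the mitosis genes was lowest in Mex3a High cells. It was 8.82 and 8.89 there, against 9.38 and 9.27 in Mex3a Low and 9.27 and 9.50 in Mex3a Neg cells. In the Lgr5 High gate the median was 8.51 and 9.10 in Mex3a High, 9.30 and 9.26 in Mex3a Low and 9.57 and 9.24 in Mex3a Neg cells. The 8.51 came from the array that stood apart, and in MR820 the medians of the 3 Lgr5 High populations were 9.10, 9.26 and 9.24. Over the 11 arrays, both Mex3a High Lgr5 Low arrays lay below all 9 others in 33 of the 39 genes, beside 6.95% of all genes. The 6 genes without this order were Aurka, Plk1, Bub3, Pttg1, Cdca3 and Kif4, and in 38 of the 39 (every gene but Bub3) the lowest of the 11 arrays was a Mex3a High Lgr5 Low array, beside 25.8% of all genes.

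**Figure D1:**
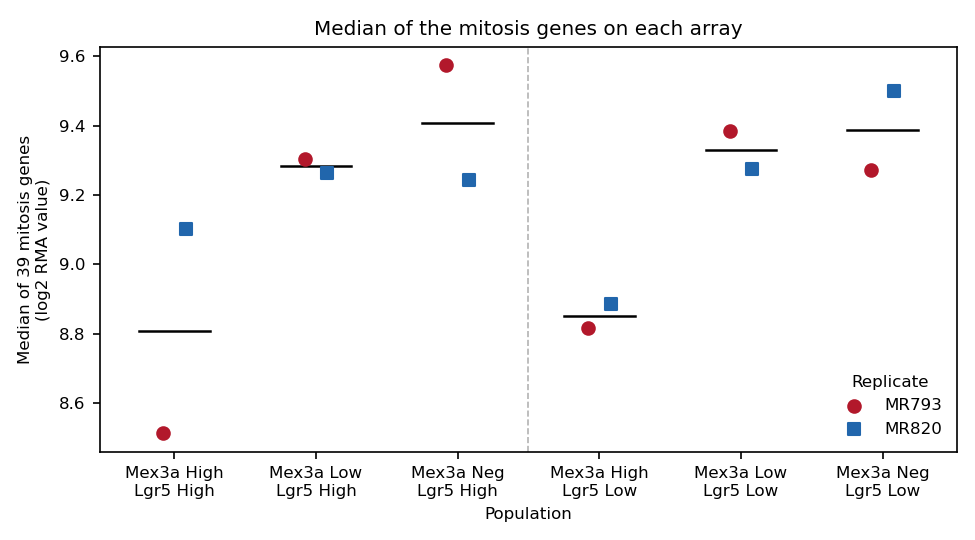
Median of the 39 mitosis genes on each of the 12 arrays (vertical axis, log2 RMA value) by population (horizontal axis); circles are MR793, squares MR820, and each bar is the mean of the 2 replicates. Mex3a High Lgr5 Low cells have 8.82 and 8.89, below the 4 other Lgr5 Low arrays at 9.27 to 9.50, while the 2 replicates of Mex3a High Lgr5 High cells lie apart at 8.51 and 9.10.

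**Figure D2:**
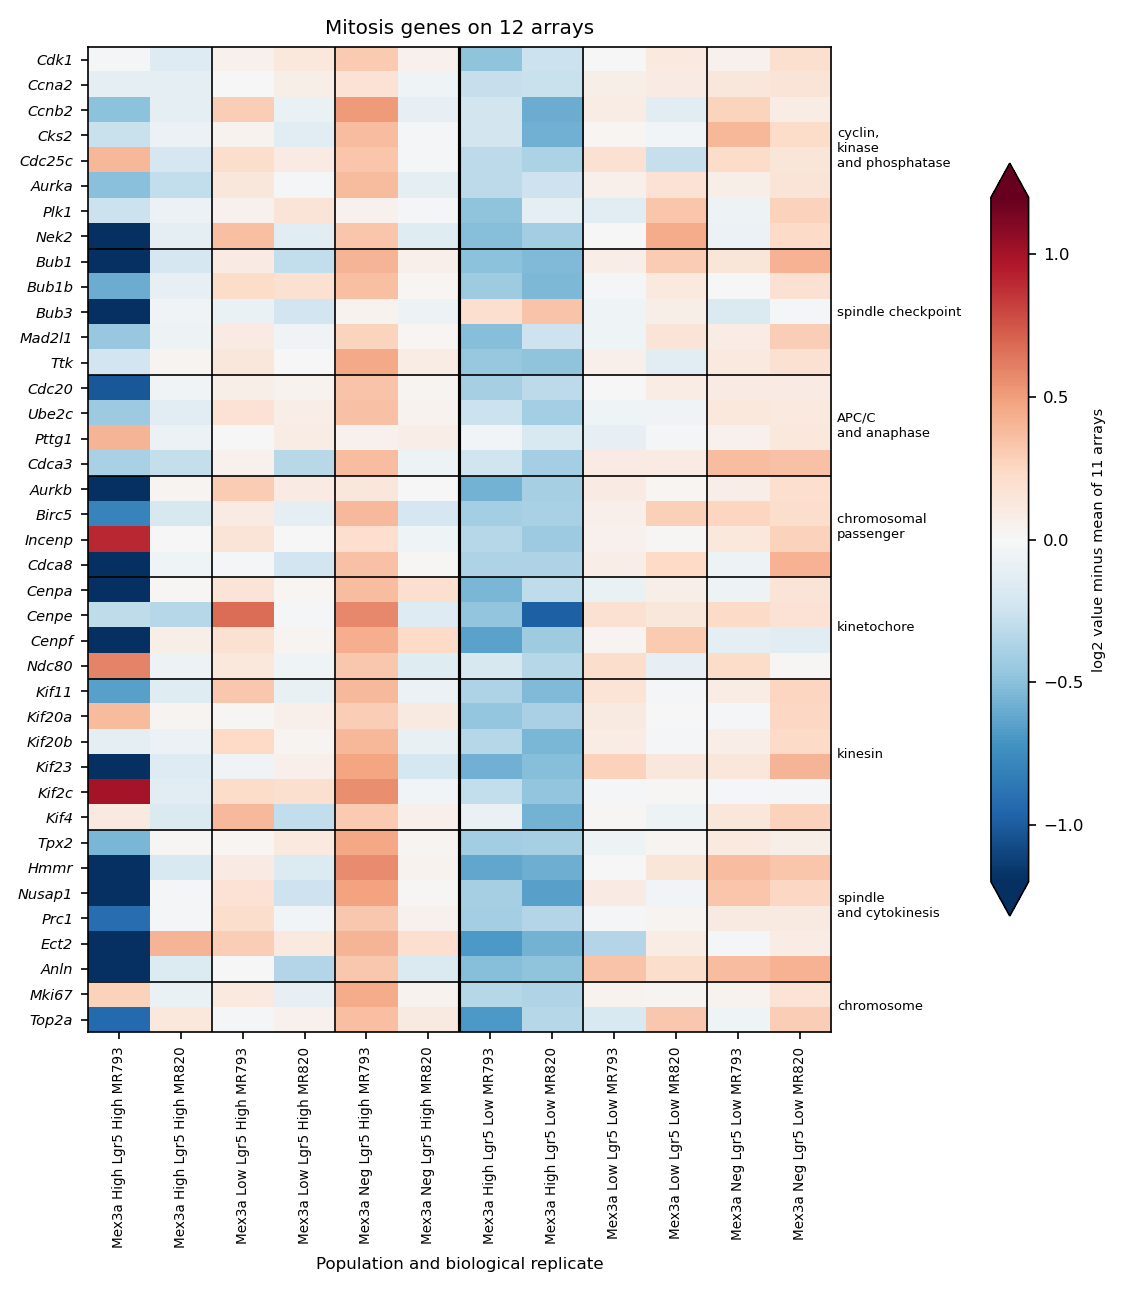
Each of the 39 mitosis genes (rows, grouped by role) on the 12 arrays (columns), as its log2 value minus its mean over 11 arrays, that of MR793 for Mex3a High Lgr5 High cells being left out; red is higher, blue lower, and the scale ends at 1.2 either way. Both Mex3a High Lgr5 Low columns are blue in nearly every row, with Bub3 the exception, and the first column, the array that stood apart, holds both extreme colours.

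The question in the Lgr5 Low gate was how cells with high Mex3a differ from those with none. Of the 39 mitosis genes, 38 were lower in Mex3a High than in Mex3a Neg cells in both replicates, beside 35.0% of all genes. In the same 38 the Mex3a High arrays lay below both Mex3a Neg arrays; over all genes, 24.2% showed such a gap downwards and 21.1% upwards. The median difference of the mitosis genes was -0.55 (-0.49 in MR793 and -0.64 in MR820), a ratio of 0.683, beside -0.01 for all genes. The arrays compared shared strip 3 in MR793 but lay on strips 2 and 3 in MR820. In the 12-array limma fit, 0 of the 39 passed an adjusted p of 0.05 (Benjamini-Hochberg over 17097 genes), while 18 had an unadjusted p under 0.05. Of all genes 1.73% passed, 293 of them higher and 2 lower, so almost no gene was called lower in that fit. In the 11-array fit 15 of the 39 fell and 0 rose, beside 1.23% of all genes called lower. Neither array of Mex3a High Lgr5 High cells enters this difference, and leaving out the MR820 one instead called the same 15 genes. With the biological replicate as a block in the 11-array fit, 29 fell, beside 5.26% of all genes, and 1 rose, Bub3, beside 6.63% of all genes called higher. The block alone, on 12 arrays, called 0. The adjusted p-values given below for single genes are from fits without the block. Called with the block on 11 arrays but not without it were Cdk1, Ccnb2, Cdc25c, Cdca3, Mad2l1, Birc5, Cenpa and Cenpe. The others were Kif11, Kif20b, Kif23, Tpx2, Mki67, Top2a and Bub3. That fit was added after the data had been seen.

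Mitotic entry rests on Cdk1 and its partners, and all 8 genes of this role were lower in Mex3a High than in Mex3a Neg cells of the Lgr5 Low gate. Cdk1, the kinase that drives mitosis, measured 9.99 and 10.22 in Mex3a High, 10.47 and 10.59 in Mex3a Low and 10.53 and 10.67 in Mex3a Neg cells. Ccna2, an A-type cyclin that binds it, measured 11.21 and 11.21 in Mex3a High, 11.55 and 11.58 in Mex3a Low and 11.62 and 11.64 in Mex3a Neg cells. Mex3a High cells were below both other populations in each replicate for both genes. The difference from Mex3a Neg cells was -0.49 ± 0.12 (SE) for Cdk1, with an adjusted p of 0.0516 in the 11-array limma fit. Ccna2 fell by 0.42 ± 0.08 on the log2 scale, with an adjusted p of 0.0178 in the same fit.

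Ccnb2, a B-type cyclin, measured 8.79 and 8.41 in Mex3a High, 9.09 and 8.87 in Mex3a Low and 9.27 and 9.10 in Mex3a Neg cells. The 4 samples of Mex3a Low and Mex3a Neg cells were above both Mex3a High samples, and the difference from Mex3a Neg was -0.59 (adjusted p 0.199 by limma, 11 arrays). Cks2, a small subunit that docks on cyclin-dependent kinases, measured 10.22 and 9.88 in Mex3a High, 10.48 and 10.41 in Mex3a Low and 10.84 and 10.67 in Mex3a Neg cells. It fell by 0.71 in Mex3a High against Mex3a Neg cells, the most in this role, with an adjusted p of 0.0328 in the 11-array and 0.170 in the 12-array limma fit, the lowest of any of the 39 genes on 12 arrays.

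Aurka, the kinase of the spindle poles, measured 9.04 and 9.10 in Mex3a High, 9.41 and 9.52 in Mex3a Low and 9.42 and 9.50 in Mex3a Neg cells. Plk1, the polo-like kinase that acts from mitotic entry to cytokinesis, measured 9.64 and 10.02 in Mex3a High, 9.99 and 10.46 in Mex3a Low and 10.06 and 10.40 in Mex3a Neg cells. For both kinases Mex3a High was the lowest of the 3 populations within each replicate, but for Plk1 the replicates themselves lay nearly as far apart, and the MR820 value in Mex3a High cells was 10.02 against 9.99 in Mex3a Low cells of MR793. The differences from Mex3a Neg cells were -0.39 for Aurka and -0.40 for Plk1, and neither passed the test in the 11-array limma fit (adjusted p 0.219 and 0.295). Nek2, a kinase that parts the centrosomes, and Cdc25c, a phosphatase that switches Cdk1 on, differed by -0.55 and -0.53.

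In the spindle checkpoint, 4 of 5 genes were lower in Mex3a High cells of the Lgr5 Low gate and Bub3 was higher. Bub1, a checkpoint kinase at the kinetochore, measured 6.64 and 6.60 in Mex3a High, 7.21 and 7.44 in Mex3a Low and 7.28 and 7.55 in Mex3a Neg cells. Bub1b, the checkpoint protein that holds back the anaphase-promoting complex, measured 8.66 and 8.54 in Mex3a High, 9.05 and 9.19 in Mex3a Low and 9.08 and 9.26 in Mex3a Neg cells. Neither gene's Mex3a High values overlapped those of the other populations. Bub1 fell by 0.79 ± 0.18 (SE) against Mex3a Neg cells, and Bub1b fell by 0.57 ± 0.14, with adjusted p of 0.0374 and 0.0471 in the 11-array limma fit.

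Mad2l1, which joins the same inhibitory complex, measured 8.95 and 9.21 in Mex3a High, 9.41 and 9.62 in Mex3a Low and 9.55 and 9.75 in Mex3a Neg cells. Its difference from Mex3a Neg cells was -0.57 with an adjusted p of 0.0590 in the 11-array limma fit, so it did not pass. Ttk, the kinase at the head of the checkpoint, fell by 0.62, with an adjusted p of 0.0387 in that fit. Bub3, the shared partner of Bub1 and Bub1b, measured 11.09 and 11.22 in Mex3a High, 10.84 and 10.96 in Mex3a Low and 10.71 and 10.87 in Mex3a Neg cells. Both Mex3a High samples were the highest of the 6, and the difference from Mex3a Neg cells was 0.37 (0.38 in MR793 and 0.36 in MR820), with an adjusted p of 0.0695 by limma on 11 arrays.

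The 4 genes of the anaphase-promoting complex and anaphase were all lower in Mex3a High than in Mex3a Neg cells. Cdc20, the activator that the checkpoint blocks, measured 10.01 and 10.10 in Mex3a High, 10.40 and 10.49 in Mex3a Low and 10.50 and 10.50 in Mex3a Neg cells. Ube2c, the enzyme that hands ubiquitin to the complex, measured 10.92 and 10.77 in Mex3a High, 11.12 and 11.13 in Mex3a Low and 11.30 and 11.28 in Mex3a Neg cells. Mex3a High cells were lowest in both replicates for both genes. Cdc20 fell by 0.45 ± 0.11 (SE) and Ube2c fell by 0.45 ± 0.11 against Mex3a Neg cells, with adjusted p of 0.0485 and 0.0421 in the 11-array limma fit. Cdca3, which is linked to mitotic entry, differed by -0.68 and Pttg1 (securin, the guard of sister chromatid cohesion) by -0.20, the smallest difference among the 38 lower genes.

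The chromosomal passenger complex corrects faulty attachments and later steers cytokinesis, and its 4 genes differed by nearly the same amount, -0.55 to -0.63. Aurkb, its kinase, measured 9.57 and 9.74 in Mex3a High, 10.24 and 10.17 in Mex3a Low and 10.22 and 10.35 in Mex3a Neg cells. Birc5 (survivin), which helps bring the complex to the centromere, measured 9.72 and 9.74 in Mex3a High, 10.19 and 10.42 in Mex3a Low and 10.39 and 10.34 in Mex3a Neg cells. The Mex3a High samples of both genes lay below the other 4 samples of the gate. Aurkb fell by 0.62 ± 0.11 (SE) against Mex3a Neg cells, with an adjusted p of 0.0128 in the 11-array limma fit, the lowest of any of the 39 genes there. Incenp, the scaffold of the complex, fell by 0.59 with an adjusted p of 0.0253, while Birc5 (-0.63) and Cdca8, the borealin gene (-0.55), did not pass, at adjusted p of 0.0791 and 0.119.

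At the kinetochore, the chromosome's anchor for the spindle, all 4 genes were lower in Mex3a High than in Mex3a Neg cells of the Lgr5 Low gate. None passed the test on 11 arrays without the replicate block. Cenpa and Cenpe passed with it, beside 5.26% of all genes called lower. Cenpa, the histone variant that marks centromeres, measured 9.27 and 9.51 in Mex3a High, 9.74 and 9.89 in Mex3a Low and 9.75 and 9.97 in Mex3a Neg cells. Cenpe, a motor that moves chromosomes towards the spindle equator, measured 7.98 and 7.47 in Mex3a High, 8.63 and 8.58 in Mex3a Low and 8.68 and 8.62 in Mex3a Neg cells. Cenpf, a large protein of the outer kinetochore, measured 9.22 and 9.43 in Mex3a High, 9.89 and 10.17 in Mex3a Low and 9.74 and 9.73 in Mex3a Neg cells. Mex3a High cells were lowest in each replicate for all 3 genes, and for Cenpe the replicates of Mex3a High cells lay 0.51 apart. The difference from Mex3a Neg cells was -0.93 for Cenpe, -0.47 for Cenpa, -0.41 for Cenpf and -0.38 for Ndc80, which grips the microtubule end. Their adjusted p-values in the 11-array limma fit were 0.109, 0.0758, 0.129 and 0.320.

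All 6 kinesin genes, motors of the spindle and midzone, were lower in Mex3a High cells of the Lgr5 Low gate. Kif11, which pushes the spindle poles apart, measured 9.44 and 9.28 in Mex3a High, 9.97 and 9.79 in Mex3a Low and 9.90 and 10.07 in Mex3a Neg cells. Kif20a, which carries the passenger complex to the midzone, measured 8.82 and 8.89 in Mex3a High, 9.38 and 9.27 in Mex3a Low and 9.25 and 9.52 in Mex3a Neg cells. In both genes the 2 Mex3a High samples lay below the other 4 samples. Kif20a fell by 0.53 ± 0.12 (SE) against Mex3a Neg cells, with an adjusted p of 0.0419 in the 11-array limma fit, and Kif11 differed by -0.62 (adjusted p 0.0947). Kif23, the motor of the central spindle, differed by -0.82, Kif20b, a relative of Kif20a, by -0.60, Kif4, a chromosome-bound kinesin, by -0.53, and Kif2c, which takes microtubules apart, by -0.37.

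The spindle and cytokinesis genes had the largest median difference of the 8 roles, -0.74, and 5 of the 6 passed the test on 11 arrays. Hmmr, a spindle assembly factor, measured 6.89 and 6.93 in Mex3a High, 7.52 and 7.66 in Mex3a Low and 7.88 and 7.85 in Mex3a Neg cells. Nusap1, which bundles microtubules near the chromosomes, measured 7.73 and 7.49 in Mex3a High, 8.23 and 8.10 in Mex3a Low and 8.47 and 8.39 in Mex3a Neg cells. Tpx2, which switches on Aurka at the spindle, measured 8.50 and 8.52 in Mex3a High, 8.86 and 8.95 in Mex3a Low and 9.04 and 8.99 in Mex3a Neg cells. The Mex3a High samples of all 3 genes lay below the other 4 samples of the gate. Hmmr fell by 0.95 ± 0.18 (SE, adjusted p 0.0143 by limma on 11 arrays) against Mex3a Neg cells, the largest of the 39 differences in the probe sets used. Its other sets gave -0.62, -0.44, -0.43 and -0.35. Nusap1 fell by 0.82 (adjusted p 0.0428 in the same limma fit), while Tpx2 differed by -0.50 and did not pass (adjusted p 0.0851). Of the genes that part the daughter cells, Anln, which scaffolds the contractile ring, fell by 0.89, Ect2, which activates the ring's GTPase, fell by 0.67, and Prc1, which bundles midzone microtubules, fell by 0.49. The other, dimmer probe set of Anln gave -0.15.

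Mki67, which coats mitotic chromosomes and is the usual histological marker of dividing cells, measured 10.48 and 10.47 in Mex3a High, 10.86 and 10.86 in Mex3a Low and 10.87 and 10.99 in Mex3a Neg cells. Top2a, which untangles sister DNA, measured 8.08 and 8.43 in Mex3a High, 8.59 and 9.10 in Mex3a Low and 8.73 and 9.07 in Mex3a Neg cells. Mki67 separated Mex3a High cells from the other 4 samples by more than the replicate spread, whereas Top2a in MR820 lay 0.34 above MR793 in the same Mex3a High cells. The differences from Mex3a Neg cells were -0.45 (adjusted p 0.0894 by limma on 11 arrays) and -0.64 (adjusted p 0.118).

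**Figure D3:**
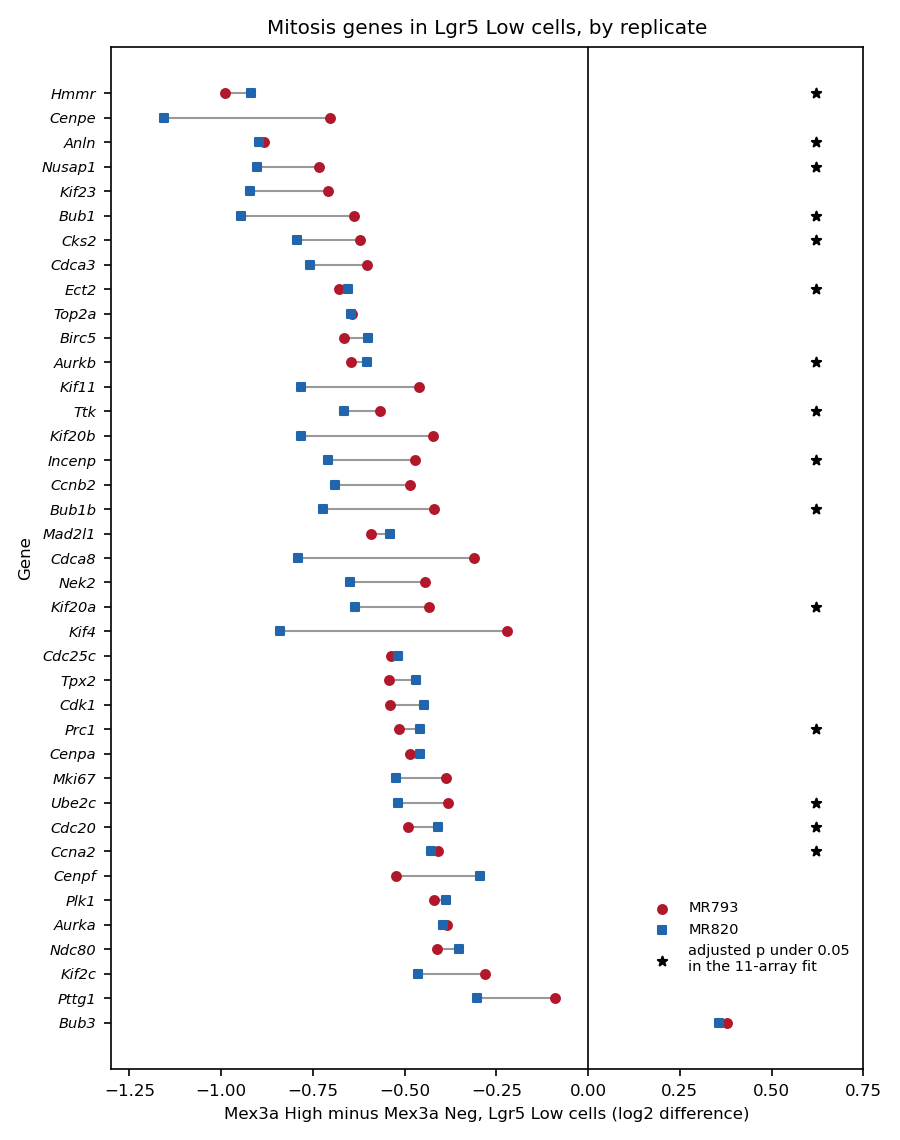
Difference between Mex3a High and Mex3a Neg cells of the Lgr5 Low gate (horizontal axis, log2) for each of the 39 mitosis genes (rows, ordered by their mean difference); circles are MR793, squares MR820, and a star marks the 15 genes with an adjusted p under 0.05 in the 11-array limma fit. Both replicates lie left of 0 for 38 genes, from Hmmr at a mean of -0.95 to Pttg1 at -0.20, and right of 0 for Bub3 at 0.37.

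Many of these genes had further probe sets of their own, which the choice of the brightest set did not use. Over 23 genes there were 35 other sets, of which 29 were lower in Mex3a High than in Mex3a Neg cells of the Lgr5 Low gate, 27 of them in both replicates. Among the 23 of these sets that were above the median level, 21 were lower and the median difference was -0.51. For Bub3 the next brightest set gave 0.45 (0.46 in MR793 and 0.44 in MR820), in the same direction as the set used.

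Promoter sequence was set beside these values because most of the 39 genes differed in one direction. Promoters of mitotic genes are known for the cell cycle genes homology region (CHR), the letters TTTGAA near the transcription start, which is bound by the DREAM complex in resting cells and by a Myb-containing complex in dividing cells, and for CCAAT boxes upstream of it, bound by NF-Y. RefSeq promoters (GRCm38.p6), from 250 bases before to 50 after each start, matched 33 of the 39 genes and 27025 genes in all. TTTGAA on either strand stood in 25 of the 33 (75.8%), against 20.2% of all genes. Within 50 bases of the start, a window chosen after the positions had been seen, 23 of the 33 (69.7%) held it, against 5.72% of all genes. CCAAT on either strand stood in 25 of the 33 (75.8%), against 41.1% of all genes, and 21 genes held both. A CHR and a CCAAT match can share an edge base, and either is a match of letters, not a shown binding site.

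The stretch from 120 bases before to 30 after the start is shown for 7 genes, as examples of mitotic entry (Cdk1, Ccnb2), the anaphase-promoting complex (Cdc20, Ube2c), the checkpoint (Ttk), the spindle (Hmmr) and the gene that went the other way (Bub3). Capitals mark TTTGAA, or TTCAAA where it lies on the other strand.
Cdk1 (chr10:69352883-69353032, minus strand): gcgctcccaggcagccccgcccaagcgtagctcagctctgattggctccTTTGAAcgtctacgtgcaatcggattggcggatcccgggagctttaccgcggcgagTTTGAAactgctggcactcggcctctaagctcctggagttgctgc
Ccnb2 (chr9:70421525-70421674, minus strand): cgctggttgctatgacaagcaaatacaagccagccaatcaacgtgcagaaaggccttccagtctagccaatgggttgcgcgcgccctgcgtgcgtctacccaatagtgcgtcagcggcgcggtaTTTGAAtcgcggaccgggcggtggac
Cdc20 (chr4:118437314-118437463, minus strand): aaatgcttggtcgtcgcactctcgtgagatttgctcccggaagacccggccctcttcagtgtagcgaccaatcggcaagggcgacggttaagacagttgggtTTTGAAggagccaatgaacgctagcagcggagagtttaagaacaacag
Ube2c (chr2:164769809-164769958, plus strand): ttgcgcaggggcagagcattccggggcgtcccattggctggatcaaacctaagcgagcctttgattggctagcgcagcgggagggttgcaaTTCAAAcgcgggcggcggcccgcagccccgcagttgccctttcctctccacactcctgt
Ttk (chr9:83834569-83834718, plus strand): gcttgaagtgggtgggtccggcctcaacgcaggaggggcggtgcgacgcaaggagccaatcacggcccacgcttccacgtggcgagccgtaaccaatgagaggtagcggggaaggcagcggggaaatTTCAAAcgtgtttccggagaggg
Hmmr (chr11:40733408-40733557, minus strand): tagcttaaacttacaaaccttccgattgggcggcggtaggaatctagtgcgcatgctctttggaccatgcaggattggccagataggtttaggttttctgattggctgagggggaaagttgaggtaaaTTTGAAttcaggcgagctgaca
Bub3 (chr7:131560250-131560399, plus strand): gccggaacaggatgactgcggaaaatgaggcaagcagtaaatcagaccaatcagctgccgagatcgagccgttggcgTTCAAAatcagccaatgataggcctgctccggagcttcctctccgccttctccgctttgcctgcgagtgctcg
The match began at base 4 after the start in Ccnb2, base 7 in Ttk and base 8 in Hmmr. It began 15 and 71 bases before the start in Cdk1, 18 before it in Cdc20, 29 before it in Ube2c and 43 before it in Bub3. Each of these stretches also held CCAAT boxes on either strand, 3 in Ccnb2 and Hmmr and 2 in each of the other 5. The 25 genes with TTTGAA had a median difference between Mex3a High and Mex3a Neg Lgr5 Low cells of -0.53 (lowest -0.95, highest 0.37). The 8 without it had -0.67 (lowest -0.93, highest -0.20). A link between the motif and the size of the difference was not tested.

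**Figure D4:**
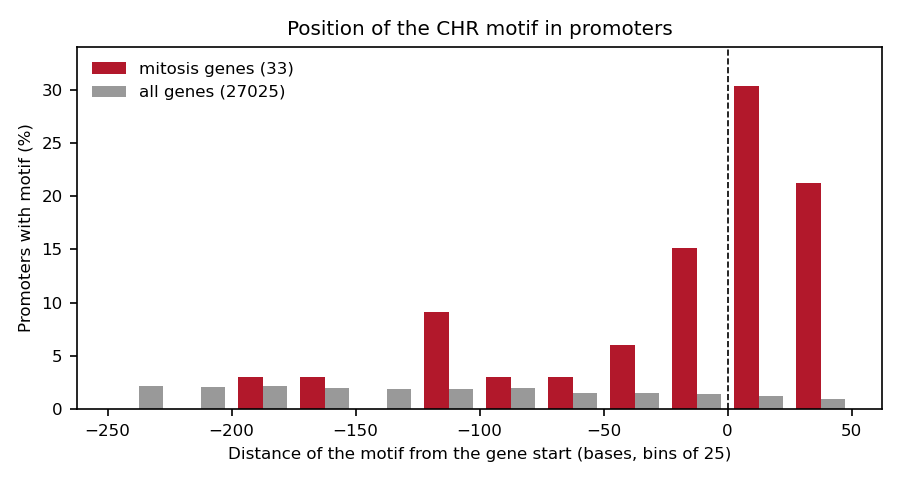
Share of genes (vertical axis, percent) with a TTTGAA match on either strand that begins in each 25-base window (horizontal axis, bases from the transcription start, negative before it), for the 33 mitosis genes (red) and 27025 genes in all (grey). The mitosis genes peak in the first 25 bases after the start at 30.3%, where all genes have 1.25%.

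Against Mex3a Low cells of the same gate the mitosis genes were lower again. In Mex3a High cells 37 of the 39 were lower in both replicates, beside 32.6% of all genes, and in 36 the Mex3a High arrays lay below both Mex3a Low arrays, beside 20.4% of all genes. The median difference was -0.43 (-0.43 in MR793 and -0.46 in MR820), and these arrays shared strip 3 in MR793 and strip 2 in MR820, so both values are within a strip. The 12-array limma fit called 0 of the 39 (8 with an unadjusted p under 0.05), beside 0.889% of all genes, 152 higher and 0 lower. The 11-array fit called 2 lower, beside 0.0877% of all genes. These were Aurkb, which fell by 0.55 (adjusted p 0.0406), and Cenpf, which fell by 0.70 (adjusted p 0.0261). With the replicate block as well, 11 were called, beside 0.918% of all genes called lower. Cenpe had the largest difference, -0.88 (-0.65 in MR793 and -1.11 in MR820), and Bub3 again had the opposite sign at 0.26.

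Mex3a Low and Mex3a Neg cells of the Lgr5 Low gate differed much less. Their arrays lay on strips 2 and 3 in MR820. The median difference of the mitosis genes was -0.08 (-0.06 in MR793 and -0.13 in MR820), 25 of the 39 were lower in Mex3a Low cells in both replicates, beside 29.3% of all genes, and 16 had no overlap downwards, beside 15.7% of all genes. The 12-array and the 11-array limma fits each called 0 of the 39, with 0 under an unadjusted p of 0.05, beside 0.0468% of all genes called on 12 arrays and 0.0936% on 11. Cks2 had the lowest value at -0.31. Aurka, Bub3, Cenpf, Kif2c and Nek2 had the opposite sign, from 0.00 for Aurka to 0.29 for Cenpf.

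Among Lgr5 High cells, the gate of the crypt base stem cells, the difference between Mex3a High and Mex3a Neg cells depended on the replicate. The median over the mitosis genes was -0.53, made of -0.96 in MR793, where the Mex3a High array was the one that stood apart, and -0.07 in MR820. It was -0.25 in the 11-array fit, which sets the MR820 Mex3a High array against the mean of both Mex3a Neg replicates. That value therefore also holds the gap between the Mex3a Neg replicates. In both replicates 24 of the 39 were lower in Mex3a High cells, beside 15.1% of all genes, and in 22 the Mex3a High arrays lay below both Mex3a Neg arrays, beside 9.07% of all genes. The 12-array limma fit called 0 of the 39 (18 with an unadjusted p under 0.05) and the 11-array fit 0 (3 with an unadjusted p under 0.05), beside 0% and 0.0175% of all genes.

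**Figure D5:**
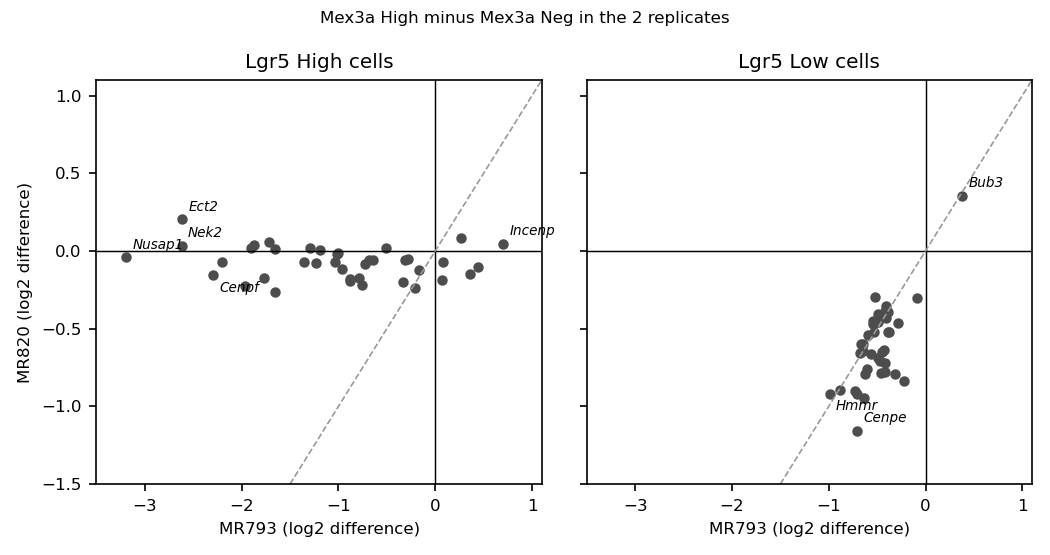
Difference between Mex3a High and Mex3a Neg cells (log2) in MR793 (horizontal axis) against MR820 (vertical axis) for the 39 mitosis genes, in Lgr5 High cells on the left and Lgr5 Low cells on the right; the dashed line marks equal differences. In Lgr5 High cells the genes spread from -3.19 to 0.70 in MR793 but stay between -0.26 and 0.20 in MR820, while in Lgr5 Low cells all but Bub3 lie below 0 on both axes.

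The range in MR820 shows how small the differences were there: they ran from -0.26 for Bub1 to 0.20 for Ect2. Cdk1 in the Lgr5 High gate measured 10.46 and 10.32 in Mex3a High, 10.52 and 10.60 in Mex3a Low and 10.79 and 10.52 in Mex3a Neg cells. Ccna2 measured 11.37 and 11.38 in Mex3a High, 11.49 and 11.55 in Mex3a Low and 11.65 and 11.43 in Mex3a Neg cells, and Ccnb2 measured 8.51 and 8.90 in Mex3a High, 9.30 and 8.93 in Mex3a Low and 9.52 and 8.91 in Mex3a Neg cells. In MR820 the Mex3a High cells differed from Mex3a Neg cells by -0.20 for Cdk1, -0.05 for Ccna2 and -0.01 for Ccnb2, while for Ccnb2 the Mex3a Neg values of the 2 replicates were themselves 0.61 apart. Aurka measured 8.85 and 9.05 in Mex3a High, 9.49 and 9.34 in Mex3a Low and 9.73 and 9.24 in Mex3a Neg cells, and Plk1 9.87 and 10.05 in Mex3a High, 10.18 and 10.28 in Mex3a Low and 10.18 and 10.11 in Mex3a Neg cells. Both kinases were lower in Mex3a High than in Mex3a Neg cells in each replicate, with a difference in MR820 of -0.19 for Aurka and -0.06 for Plk1. The other probe set of Ccna2 measured 7.27 and 8.89 in Mex3a High cells, where the set used held at 11.37 and 11.38.

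In the checkpoint, Bub1 measured 5.89 and 6.93 in Mex3a High, 7.23 and 6.83 in Mex3a Low and 7.54 and 7.19 in Mex3a Neg cells. Bub1b measured 8.48 and 8.98 in Mex3a High, 9.30 and 9.26 in Mex3a Low and 9.44 and 9.10 in Mex3a Neg cells, and Mad2l1 9.00 and 9.40 in Mex3a High, 9.56 and 9.42 in Mex3a Low and 9.73 and 9.48 in Mex3a Neg cells. All 3 were lowest in the MR793 array of Mex3a High cells, which for Bub1 lay 1.04 under its MR820 counterpart. Cdc20 measured 9.39 and 10.36 in Mex3a High, 10.47 and 10.45 in Mex3a Low and 10.74 and 10.43 in Mex3a Neg cells. Ube2c measured 10.74 and 11.04 in Mex3a High, 11.35 and 11.25 in Mex3a Low and 11.52 and 11.21 in Mex3a Neg cells. For Cdc20 the 5 arrays other than that one lay between 10.36 and 10.74. Of the passenger genes, Aurkb measured 8.40 and 10.17 in Mex3a High, 10.45 and 10.24 in Mex3a Low and 10.28 and 10.14 in Mex3a Neg cells. Birc5 measured 9.33 and 9.94 in Mex3a High, 10.24 and 10.02 in Mex3a Low and 10.52 and 9.93 in Mex3a Neg cells. In MR820 the Mex3a High and Mex3a Neg values differed by 0.04 for Aurkb and 0.01 for Birc5.

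In the probe sets used, the centromere genes Cenpa and Cenpf showed the same split. The next brightest set of Cenpf went the other way, at 9.42 and 8.88 in Mex3a High cells, while that of Cenpa gave 7.13 and 8.18. Cenpa measured 8.42 and 9.83 in Mex3a High, 9.97 and 9.84 in Mex3a Low and 10.19 and 10.01 in Mex3a Neg cells, and Cenpf measured 7.99 and 9.93 in Mex3a High, 10.04 and 9.89 in Mex3a Low and 10.29 and 10.08 in Mex3a Neg cells. On the 5 other arrays of the gate Cenpa lay between 9.83 and 10.19 and Cenpf between 9.89 and 10.29. Cenpe was the exception, at 8.14 and 8.11 in Mex3a High, 9.11 and 8.42 in Mex3a Low and 9.02 and 8.29 in Mex3a Neg cells: here MR793 was above MR820 by 0.69 in Mex3a Low and 0.73 in Mex3a Neg cells, and by 0.03 in Mex3a High cells. The motors read differently from one another, with Kif11 at 9.16 and 9.67 in Mex3a High, 10.13 and 9.72 in Mex3a Low and 10.20 and 9.74 in Mex3a Neg cells. Kif20a, at 9.65 and 9.31 in Mex3a High, 9.29 and 9.34 in Mex3a Low and 9.57 and 9.38 in Mex3a Neg cells, was highest in the array that stood apart.

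Of the spindle genes, Tpx2 measured 8.38 and 8.94 in Mex3a High, 8.94 and 9.04 in Mex3a Low and 9.39 and 8.96 in Mex3a Neg cells. Hmmr measured 6.11 and 7.33 in Mex3a High, 7.61 and 7.34 in Mex3a Low and 8.08 and 7.55 in Mex3a Neg cells. Its next brightest set gave 7.12 and 7.04 in Mex3a High cells, so the gap between these 2 arrays was not shared. In MR793 that set gave 7.35 in Mex3a Low and 7.59 in Mex3a Neg cells, above the 7.12 of Mex3a High cells. Nusap1, the gene with the largest difference between Mex3a High and Mex3a Neg Lgr5 High cells on 12 arrays (-1.62), measured 5.42 and 8.12 in Mex3a High, 8.31 and 7.89 in Mex3a Low and 8.62 and 8.15 in Mex3a Neg cells. Its difference was -3.19 in MR793 and -0.04 in MR820, so it rested on 1 array. Mki67 measured 11.10 and 10.74 in Mex3a High, 10.94 and 10.72 in Mex3a Low and 11.27 and 10.86 in Mex3a Neg cells. Top2a measured 7.84 and 8.90 in Mex3a High, 8.76 and 8.83 in Mex3a Low and 9.14 and 8.88 in Mex3a Neg cells. The 2 chromosome genes went opposite ways on the array that stood apart, Mki67 being 0.36 above and Top2a 1.06 below their MR820 values.

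Genes with the opposite sign between Mex3a High and Mex3a Neg Lgr5 High cells on 12 arrays were Incenp (0.37), Ndc80 (0.18), Kif2c (0.17), Pttg1 (0.10) and Kif20a, whose difference of 0.00 was nil. On 11 arrays the one such gene was Ect2, at 0.10. The lowest difference on 11 arrays was that of Cenpe, -0.55, taken against the mean of both Mex3a Neg replicates. Within MR820 Cenpe measured 8.11 in Mex3a High and 8.29 in Mex3a Neg cells, and the MR793 Mex3a Neg value was 9.02.

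In the Lgr5 High gate, Mex3a High against Mex3a Low cells gave a median of -0.42 (-0.79 in MR793 and -0.02 in MR820). It was -0.11 on 11 arrays, again with the MR820 Mex3a High array set against both replicates of the other population. In 18 of the 39 genes the Mex3a High arrays lay below both Mex3a Low arrays, beside 8.36% of all genes. The lowest difference was again that of Nusap1 (-1.33) and the highest that of Incenp (0.37), and Kif20a, Kif2c, Mki67, Ndc80 and Pttg1 also had the opposite sign. Limma called 0 of the 39 on 12 arrays (5 with an unadjusted p under 0.05) and 0 on 11 arrays (0 with an unadjusted p under 0.05), beside 0% and 0.00585% of all genes.

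Mex3a Low against Mex3a Neg cells of this gate gave a median of -0.10 (-0.22 in MR793 and 0.01 in MR820), with no overlap downwards in 6 of the 39 genes, beside 15.1% of all genes. Values ran from -0.33 for Hmmr to 0.13 for Aurkb, and Bub1b, Cenpe, Incenp, Nek2 and Plk1 also had the opposite sign to the median. Limma called 0 on 12 and on 11 arrays, with 0 under an unadjusted p of 0.05 in each, beside 0% of all genes called. The Mex3a Neg Lgr5 High arrays differed between replicates: 38 of the 39 genes were higher in MR793 than in MR820, with a median of 0.35, and these arrays lay on strips 1 and 2. The part of strip or replicate in this was not tested.

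Whether the Mex3a High against Mex3a Neg difference itself differed between the Lgr5 gates was tested as an interaction. On 12 arrays the median over the mitosis genes was 0.07 (-0.50 in MR793 and 0.60 in MR820), and on 11 arrays it was 0.31, with 36 of the 39 above 0. Limma called 0 of the 39 in either fit, with 1 gene under an unadjusted p of 0.05 on 12 arrays and 5 on 11, beside 0.398% of all genes called on 12 arrays and 0.936% on 11. The lowest value on 12 arrays was that of Bub3 (-1.31) and the highest that of Incenp (0.96). A difference between the gates was therefore not shown, although in MR820 it was above 0 in 38 of the 39 genes.

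In Mex3a Neg and Mex3a Low cells the mitosis genes had no median shift with the Lgr5 gate that both replicates shared. In Mex3a Neg cells the median difference between Lgr5 High and Lgr5 Low was 0.00, made of 0.24 in MR793 and -0.21 in MR820, and in Mex3a Low cells it was also 0.00 (0.09 and -0.07). Limma called 0 of the 39 in either comparison on 12 or 11 arrays, with 0 under an unadjusted p of 0.05 on 12 arrays and 1 in each on 11. Of all genes, 0.0468% were called in Mex3a Low cells on 12 arrays and 0.164% on 11, and 0% and 0.0585% in Mex3a Neg cells. Among Mex3a Low cells Anln (-0.44) and Ect2 (0.34) lay at the ends of the range, and among Mex3a Neg cells Anln (-0.32) and Cenpf (0.45). On the mean of the replicates, about equal numbers of the 39 lay on either side of 0 in each comparison, 20 above and 19 below. This averages opposed shifts: in Mex3a Neg cells 4 of the 39 were lower in Lgr5 High cells in MR793 and 36 in MR820. In Mex3a Low cells 8 were lower in MR793 and 25 in MR820. In each replicate the arrays compared here lay on different strips.

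In Mex3a High cells the Lgr5 High to Lgr5 Low difference had a median of 0.11 on 12 arrays (-0.18 in MR793 and 0.33 in MR820) and 0.32 on 11, where 37 of the 39 were above 0 and Aurka and Bub3 were below. In 11 of the 39 both Lgr5 High arrays lay above both Lgr5 Low arrays, beside 17.5% of all genes. Limma called 0 of the 39 on 12 arrays (5 with an unadjusted p under 0.05), beside 1.37% of all genes, and 1 on 11 arrays, beside 0.24% of all genes called higher. That gene was Ect2, with 4.48 and 7.10 in Lgr5 High and 6.00 and 6.13 in Lgr5 Low cells. The MR793 value of Lgr5 High cells lay below both Lgr5 Low samples and the MR820 value above them. The difference was -0.27 on 12 arrays, and on 11 arrays Ect2 rose by 1.03 ± 0.20 (SE, adjusted p 0.0292 by limma), a call that rests on a single Lgr5 High array. Bub3 had the lowest difference on 12 arrays (-1.22) and Incenp the highest (0.84).

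Averaged over the 3 Mex3a gates, Lgr5 High minus Lgr5 Low had a median of 0.02 on 12 arrays and 0.11 on 11. Limma called 0 of the 39 on 12 arrays (1 with an unadjusted p under 0.05), beside 1.38% of all genes, and Ect2 alone on 11 (0.55, adjusted p 0.0166), beside 1.81% of all genes called higher. The ends of the range on 12 arrays were Bub3 at -0.43 and Kif2c at 0.44.

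Further mitosis genes outside the 39, taken from a list written from general knowledge, were lower in Mex3a High Lgr5 Low cells as well. Of 64 listed, 53 were measured, 50 were lower than in Mex3a Neg Lgr5 Low cells, and the median was -0.47. On 12 arrays 0 were called. On 11 arrays, where 1.23% of all genes were called lower, limma called 8 of the 53 lower. These were Aspm, a spindle pole protein (-0.89, adjusted p 0.0251), Cep55, which acts at the last step of cytokinesis (-1.08, adjusted p 0.0104), Cdkn3 (-0.77), Espl1, the separase gene (-0.82), Smc2 of condensin (-0.78), Bora, an activator of Aurka (-0.58), Cenpk (-0.72) and Pbk (-0.66). The 3 genes above 0 were Cdc25b, Zwint and Fzr1. In RefSeq promoters 25 of 44 of these genes (56.8%) held TTTGAA, against 20.0% of DNA replication genes (5 of 25).

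Regulators of mitotic genes differed less. Of 16 listed, 15 were measured, with a median of -0.32 between Mex3a High and Mex3a Neg Lgr5 Low cells, 13 below 0, and 1 called lower on 11 arrays: Lin54, the DNA-binding subunit that reads the CHR (-0.74, adjusted p 0.0366 by limma). Foxm1, a forkhead activator of these genes, measured 8.27 and 8.39 in Mex3a High, 8.64 and 8.64 in Mex3a Low and 8.65 and 8.66 in Mex3a Neg cells. Its Mex3a High samples lay below the other 4, with a difference of -0.32 (adjusted p 0.167 on 11 arrays), and Mybl2, the Myb of the activating complex, differed by -0.56 (adjusted p 0.704). The 30 DNA replication genes had a median of -0.37 and all 30 were below 0, with 2 called lower on 11 arrays, Dbf4 (-0.85) and Rfc5 (-0.55). The 1 of 15 regulators and the 2 of 30 replication genes stand beside 1.23% of all genes called lower on 11 arrays.

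Of the inhibitors of cyclin-dependent kinases, Cdkn1c, which holds cells out of the cycle, was the one gene called on 12 arrays between Mex3a High and Mex3a Neg cells, beside 1.73% of all genes. It measured 9.40 and 9.33 in Mex3a High, 7.41 and 6.47 in Mex3a Low and 5.30 and 5.42 in Mex3a Neg cells of the Lgr5 Low gate. Mex3a High cells were highest and Mex3a Neg cells lowest with no overlap, and Cdkn1c rose by 4.00 ± 0.27 (SE, adjusted p 4.94e-05 by limma on 12 arrays). Cdkn1a, an inhibitor known as a p53 target, measured 11.73 and 11.58 in Mex3a High, 10.72 and 9.69 in Mex3a Low and 10.45 and 8.84 in Mex3a Neg cells. Its 2 replicates lay 1.60 apart in Mex3a Neg cells, and the difference of 2.01 did not pass (adjusted p 0.151). Of the 7 inhibitor genes, 4 were above 0 and 3 below, with a median of 0.12. In Lgr5 High cells Cdkn1c stayed between 5.25 and 5.86 in all 6 samples.

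Markers of the tuft and enteroendocrine lineages moved with the Mex3a gates of the Lgr5 Low cells. The mean of 10 tuft cell markers was 9.71 and 9.65 in Mex3a High, 7.82 and 6.99 in Mex3a Low and 5.46 and 5.44 in Mex3a Neg cells, and 10 of 10 rose in Mex3a High against Mex3a Neg cells on 12 arrays. The mean of 15 enteroendocrine markers was 10.22 and 9.91 in Mex3a High, 8.77 and 7.49 in Mex3a Low and 6.39 and 6.10 in Mex3a Neg cells, and 14 of 15 rose. Both counts stand beside 1.73% of all genes called on 12 arrays. In Mex3a High cells 1 tuft and 0 enteroendocrine markers lay below the median level of all genes, against 8 to 9 tuft and 8 to 10 enteroendocrine markers in Mex3a Neg cells. Mex3a Low cells had marker means between those of the other populations but mitosis medians of 9.38 and 9.27, close to the 9.27 and 9.50 of Mex3a Neg cells. The part of these markers in the lower mitosis genes was not tested.

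Other marker lists differed less between Mex3a High and Mex3a Neg cells of the Lgr5 Low gate, or unevenly. Of 7 Paneth markers, with a mean of 10.46 and 10.51 in Mex3a High and 8.10 and 9.08 in Mex3a Neg cells, 4 rose on 12 arrays. The mean of 9 stem cell markers was 8.98 and 8.81 in Mex3a High and 8.39 and 8.96 in Mex3a Neg cells, that of 8 goblet markers 10.12 and 10.37 and 10.45 and 9.97, and that of 13 enterocyte markers 10.44 and 10.46 and 11.07 and 9.43, with 0 called on 12 arrays in any of the 3 lists. Of 9 leukocyte markers 2 rose and of 10 mesenchymal and endothelial markers 1 rose. The counts of these lists stand beside 1.73% of all genes called on 12 arrays. On the MR793 array of Mex3a High Lgr5 High cells the mesenchymal and endothelial mean was 6.11, against 5.36 to 5.72 on the other 11 arrays.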

How the data were processed

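RNA of 12 samples was hybridised to Affymetrix arrays. Per the submitters' processing notes the authors used RMA, and the deposited values are log2 values per probe set. Its version and settings were not stated in the labels. RMA compresses differences of dim genes, and with arrays their number, 2 per population, limits the precision. The deposited values were used unchanged (45141 probe sets, 3.54 to 13.7). GEO's platform annotation names 28898 of them with 1 gene and 551 with several, and 15692 are not listed; 0 symbols changed when matched by gene ID. Per gene the single-gene set with the highest mean over 12 arrays was used (17097 genes), never a level against another gene's.

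Genes were fitted with limma 3.58.1 in R 4.3.3 on the means of the 6 populations with no block and a mean-variance trend in eBayes, with Benjamini-Hochberg adjustment over all genes of a comparison, called at 0.05. The scripts were tested on simulated data. SE stands for limma's moderated standard error. There were 11 comparisons: 3 pairs of Mex3a gates in each Lgr5 gate, Lgr5 High against Low in each Mex3a gate and on average, and the interaction. The 11-array fit leaves out MR793 of Mex3a High Lgr5 High cells, which leaves 1 array in that population. Without a block, its differences then set an MR820 array against the mean of both replicates of another population. The design text derives all populations from the same 2 biological replicates, so the replicate pairs the samples; replicate deviations correlated over 0.1 in 14 of 15 pairs of populations (lowest -0.115, median 0.382), and in 10 of 10 without the Mex3a High Lgr5 High cells (0.374 to 0.566). "Strip" is the label's array strip (3 in all).

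The 39 genes and all other lists (other mitosis genes, regulators, DNA replication, inhibitors, cell type markers) were chosen with earlier results of these data known, and no list was tested as a set. Named genes were the 22 core members given per array, each called member, the extremes of each comparison, the members against the median's sign, and up to 4 genes of other lists, with more where a count needed them. Alternatives were the replicate and the strip as blocks, quantile normalization again, genes above the median level, the mean of a gene's probe sets, array weights and each array left out; the Lgr5 Low arrays alone and the block on 11 arrays were added after seeing the data.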

Additional observations from a re-analysis of the deposited data

Results flagged for a closer look

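In 6 cases both replicates of a mitosis gene moved one way in the Lgr5 High gate and both the other way in the Lgr5 Low gate, and each value here is the Lgr5 High difference minus the Lgr5 Low difference. For Mex3a High against Mex3a Neg cells, Incenp had 0.96 (0.37 in Lgr5 High, -0.59 in Lgr5 Low) and Ndc80 had 0.56 (0.18 in Lgr5 High, -0.38 in Lgr5 Low). The limma interaction did not pass for either: the adjusted p was 0.865 for both on 12 arrays, and 0.449 and 0.840 on 11. The Lgr5 High difference of Incenp was 0.70 in MR793, which holds the array that stood apart, and 0.05 in MR820. The next brightest probe set of Incenp did not show the reversal. In Lgr5 High cells it measured 8.73 and 8.72 in Mex3a High and 9.03 and 8.85 in Mex3a Neg cells. For Mex3a High against Mex3a Low cells, Mki67 had 0.48 (0.09 in Lgr5 High, -0.39 in Lgr5 Low), and in MR820 its Lgr5 High difference was 0.01. For Mex3a Low against Mex3a Neg cells, Bub3 had -0.26 (-0.15 in Lgr5 High, 0.11 in Lgr5 Low), Cenpe had 0.16 (0.11 in Lgr5 High, -0.05 in Lgr5 Low) and Cenpf had -0.52 (-0.22 in Lgr5 High, 0.29 in Lgr5 Low). The difference between the gates was not tested for Mki67, Bub3, Cenpe and Cenpf. In the next brightest sets of Bub3, Cenpe and Cenpf the replicates disagreed in sign in Lgr5 High cells. Mex3a Low cells there measured 7.71 and 8.00 for Bub3, 8.41 and 8.28 for Cenpe and 8.95 and 9.10 for Cenpf. Mex3a Neg cells measured 7.84 and 7.73, 8.75 and 8.20, and 9.16 and 9.01.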

How the results depend on the processing

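The count of mitosis genes called was 0 in all 11 comparisons on 12 arrays, and also 0 in each with the replicate block, the strip block, a new quantile normalization, genes above the median level or the mean of probe sets. For Mex3a High against Mex3a Neg Lgr5 Low cells it was 14 with array weights (5.44% of all genes), 9 on the Lgr5 Low arrays alone (3.12%) and 30 with the replicate block on 11 arrays (11.9%). Over the fits without 1 array each it was 0 to 15, and 5.29% and 5.31% of all genes were called where it was 15. For Mex3a High against Mex3a Low Lgr5 Low cells these counts were 1 (2.7% of all genes), 1 (1.21%), 11 (5.23%) and 0 to 2 (2.46% and 2.45% where it was 2). With the replicate block on 11 arrays, 2 genes were called between the Lgr5 gates of Mex3a High cells, beside 4.32% of all genes. On average over the Mex3a gates 3 were called, beside 11.4% of all genes. Both comparisons hold a single Mex3a High Lgr5 High array, and neither count stands clear of its background. Leaving out 1 array gave 0 to 28 genes for Mex3a High against Mex3a Neg and 0 to 25 for Mex3a High against Mex3a Low Lgr5 High cells, 0 to 21 between the Lgr5 gates of Mex3a High cells, 0 to 18 on average over the gates and 0 to 16 for the interaction. At these highest counts 62.3%, 60.7%, 63.6%, 54.5% and 48.6% of all genes were called in the same 5 comparisons, so the members' counts lie near the background. They came without the MR820 array of Mex3a High Lgr5 High cells, which leaves the array that stood apart alone in its population, assumed to vary like the others. The median of Mex3a High minus Mex3a Neg in Lgr5 Low cells kept its sign in 20 of 20 alternatives (-0.62 to -0.48), but many of these could not move it. The replicate block, array weights, the Lgr5 Low arrays alone and leaving out an array of another population return the same difference of means. Of the 15 genes called on 11 arrays, 11 were also called with array weights and 6 on the Lgr5 Low arrays alone. In the Lgr5 High gate, dim or small differences cannot be separated from the replicate spread with the single remaining Mex3a High array.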
